A study of Schizosaccharomyces pombe with 4 samples.

Results

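The cytosolic ribosomal protein genes of the fission yeast Schizosaccharomyces pombe were taken as all annotated genes whose symbol starts with rpl or rps followed by a digit. The symbol matched 132 genes, of which 1, the mitochondrial rps3, is not cytosolic and was left out. The remaining 131 genes, 76 of the large subunit and 55 of the small subunit, were set against all 5108 protein-coding genes with at least 1 tile. They lay on chromosome I (58 genes), chromosome II (48) and chromosome III (25). The rule reads gene symbols and no measured value, although it was chosen with earlier results of these data known.

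Chromatin immunoprecipitation was read on 4 tiling arrays, each comparing immunoprecipitated (IP) DNA with whole-cell extract (WCE) DNA of the same strain. Rif1_Myc is the anti-Myc IP from Rif1Myc cells, Taz1_GFP the anti-GFP IP from taz1GFP cells, Taz1_L593F the IP with an antibody raised against Taz1 from cells carrying the allele labelled taz1l593F (mut5), and Taz1_wt the IP with the same Taz1 antibody from wild-type cells. All cultures were in log phase in rich medium (YEA) at 30 °C, and were fixed with 3% paraformaldehyde before the chromatin was sheared to fragments of 500 to 1000 bp. Taz1 is the shelterin protein that binds telomeric repeats, and Rif1 is a protein found at telomeres and at late replication origins. The study asked about Taz1 at chromosome-internal sites. There was 1 array per group, so no difference between arrays has a replicate check, no test was possible, and array and group cannot be told apart. An IP from untagged cells or from cells lacking Taz1 was not analysed here, so DNA recovered without the named protein cannot be told apart from DNA recovered with it.

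Ribosomal protein genes encode the proteins that fold onto ribosomal RNA to make the large subunit, where peptide bonds form, and the small subunit, where messenger RNA is decoded. In growing yeast they are among the most strongly transcribed genes, and most occur as duplicated copies at separate loci. In S. pombe many of their promoters carry a conserved element called HomolD in place of a TATA box, often with a second element, HomolE, upstream of it.

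Those elements were looked for, on both strands, in the window from 250 bases before to 50 bases after each gene start of the RefSeq annotation of assembly ASM294v3. The searched letters were CAGTCACA for HomolD, GGTTACA for the core of the telomere repeat that Taz1 binds and TATAAA for the TATA box, together with the conserved core of HomolE, which stands in capitals ahead of HomolD in the rpl1802 promoter printed here. None of these motifs contains another. HomolD was present in 84 of 131 ribosomal protein promoters (64.1%), against 2.68% of all 5112 protein-coding promoters, and the HomolE core in 40 (30.5%), against 64 of the 5112. With at most 1 mismatch allowed, a setting chosen after the exact matches were seen, HomolD was found in 128 of 131 (97.7%), against 16.2% of all promoters, and the HomolE core in 56 (42.7%), against 2.66%. The TATA box was in 34 (26.0%), against 48.1%. The telomere repeat core was in 5 (3.82%), against 2.41%. The first base of HomolD had a median position of −51 from the gene start, and that of the HomolE core −70. None of the 39 mitochondrial ribosomal protein promoters held an exact HomolD or HomolE core.

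The 250 bases before the gene start are printed for the genes with the highest and the lowest value on Rif1_Myc (rpl1802 and rps2501), for those on Taz1_wt (rps29 and rpl2402), and for rps2502, the second copy of the family whose copies differ most on Rif1_Myc. Each is written on the strand of its gene from RefSeq assembly ASM294v3, at chrI:1285366-1285615 (plus strand), chrII:1274000-1274249 (plus), chrII:516178-516427 (plus), chrIII:138567-138816 (minus) and chrI:4208857-4209106 (minus), in the order of the lines. Capitals mark exact matches to HomolD or to the HomolE core.
rpl1802: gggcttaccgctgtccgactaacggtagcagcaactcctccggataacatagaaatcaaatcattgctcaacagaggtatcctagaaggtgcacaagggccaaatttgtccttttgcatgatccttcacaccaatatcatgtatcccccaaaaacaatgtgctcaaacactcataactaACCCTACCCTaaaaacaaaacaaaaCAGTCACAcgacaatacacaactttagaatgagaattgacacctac
rps2501: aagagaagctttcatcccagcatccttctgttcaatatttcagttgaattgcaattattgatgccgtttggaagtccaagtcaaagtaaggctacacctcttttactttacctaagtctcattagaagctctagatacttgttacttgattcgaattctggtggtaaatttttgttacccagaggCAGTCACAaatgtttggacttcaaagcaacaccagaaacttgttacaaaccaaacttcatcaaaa
rps29: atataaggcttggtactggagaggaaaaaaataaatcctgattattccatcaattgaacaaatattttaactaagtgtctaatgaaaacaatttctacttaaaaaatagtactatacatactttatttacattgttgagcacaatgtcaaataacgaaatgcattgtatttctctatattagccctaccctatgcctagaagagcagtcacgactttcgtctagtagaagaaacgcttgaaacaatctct
rpl2402: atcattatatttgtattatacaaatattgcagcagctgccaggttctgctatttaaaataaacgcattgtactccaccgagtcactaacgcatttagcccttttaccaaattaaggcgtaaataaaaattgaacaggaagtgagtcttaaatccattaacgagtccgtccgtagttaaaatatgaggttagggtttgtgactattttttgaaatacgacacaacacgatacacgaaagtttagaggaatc
rps2502: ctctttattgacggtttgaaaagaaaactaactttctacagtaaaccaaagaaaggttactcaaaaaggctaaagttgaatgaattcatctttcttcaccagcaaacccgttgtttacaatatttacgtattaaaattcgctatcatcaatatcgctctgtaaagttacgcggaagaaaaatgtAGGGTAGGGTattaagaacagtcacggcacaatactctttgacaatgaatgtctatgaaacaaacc
The rpl1802 promoter held the HomolE core at −71 and HomolD at −46. The rps2501 promoter held HomolD at −65, and the rps2502 promoter the HomolE core on the opposite strand at −66. The windows of rps29 and rpl2402 held no exact match to any of the 4 motifs.

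The array carries 60-base probes about 300 bp apart, and 767 of its 41251 chromosome tiles overlapped a ribosomal protein gene or lay within 500 bp of one. Each gene had 4 to 12 tiles, with a median of 6, and 19 tiles lay near more than 1 ribosomal protein gene. None of the 767 tiles was below background, and outlier flags removed 0 of them on Rif1_Myc, 1 on Taz1_GFP, 0 on Taz1_L593F and 4 on Taz1_wt. The value of a tile is the log2 ratio of IP to WCE minus the median of its array, and the value of a gene is the mean over its tiles. A gene value of 0 is therefore the array median, and 0.585 is a 1.5-fold higher ratio. Tiles of a gene share chromatin fragments and are not replicates, so an SD over tiles describes the gene only. The robust SD of single tiles was 0.40 on Rif1_Myc, 0.28 on Taz1_GFP, 0.20 on Taz1_L593F and 0.24 on Taz1_wt, so equal values do not stand equally far from the bulk of each array.

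Ribosomal protein genes stood above the array median as a group on Rif1_Myc and Taz1_wt. On Rif1_Myc their median was 0.29 (quartiles 0.15 and 0.44), a 1.22-fold higher ratio, against −0.02 for all protein-coding genes. On Taz1_wt it was 0.28 (0.23 and 0.36), or 1.21-fold, against 0.00. On Taz1_GFP the median was 0.08 (−0.05 and 0.18), against 0.01, and on Taz1_L593F −0.04 (−0.12 and 0.05), against 0.01. On Taz1_GFP and Taz1_L593F the quartile ranges of ribosomal protein genes and of all genes overlapped for most of their length. Without the registration of probe positions on the assembly the medians were 0.13 on Rif1_Myc and 0.14 on Taz1_wt.

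The counts show how far the group moved together. Above the array median were 120 of 131 ribosomal protein genes on Rif1_Myc (46.7% of all genes), 88 on Taz1_GFP (51.0%), 51 on Taz1_L593F (52.2%) and 128 on Taz1_wt (50.4%). At or above the upper quartile of all genes, where 25.0% of genes lie on each array, were 92 on Rif1_Myc, 51 on Taz1_GFP, 27 on Taz1_L593F and 118 on Taz1_wt. Above the median on both Rif1_Myc and Taz1_wt were 119 (30.9% of all genes), and 85 were above it on Taz1_GFP as well (22.7%).

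The shift was small in size. A ratio at least 1.5-fold above the array median was reached by 11 ribosomal protein genes on Rif1_Myc (4.07% of all genes), 0 on Taz1_GFP (2.19%), 0 on Taz1_L593F (0.0587%) and 1 on Taz1_wt (1.37%). At least 2-fold was reached by 1 gene on Rif1_Myc (1.19%) and by 0 on Taz1_GFP (0.626%), Taz1_L593F (0.0196%) and Taz1_wt (0.255%). No ribosomal protein gene was 1.5-fold below the array median, which held for 0.92% of all genes on Rif1_Myc, 0.0392% on Taz1_GFP, 0.0196% on Taz1_L593F and 0.0% on Taz1_wt. The count on Rif1_Myc fell to 3 when the arrays were scaled to a common spread, and that on Taz1_wt became 20 with normexp background correction.

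**Figure D1:**
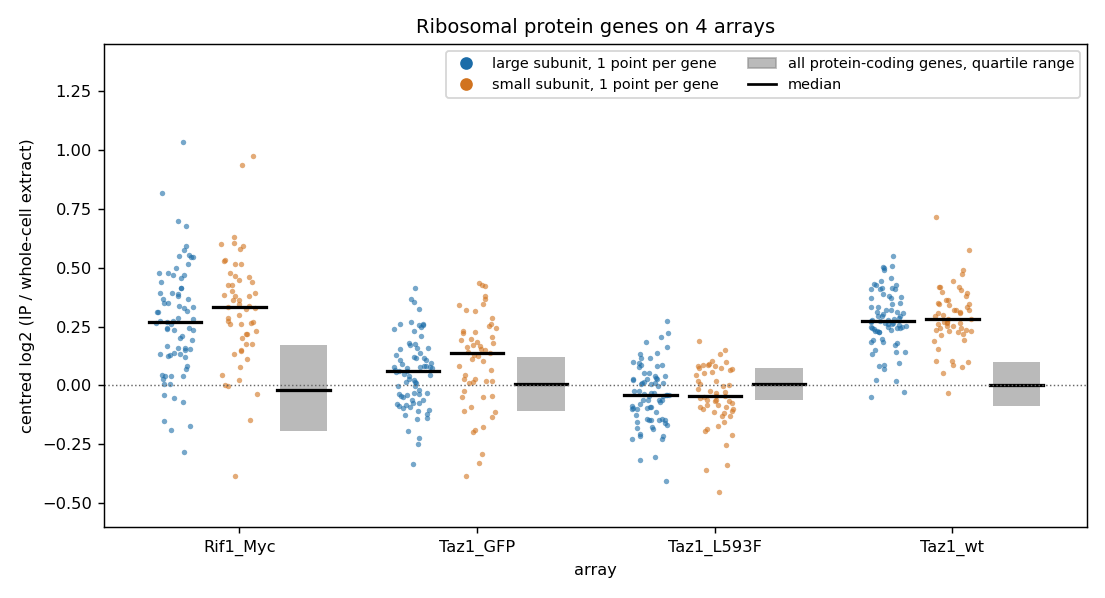
Values of the 131 ribosomal protein genes on the 4 arrays. The vertical axis is the centred log2 ratio of IP to whole-cell extract, each point is the mean over the tiles of 1 gene, black lines are medians, and grey boxes are the quartile range of all 5108 protein-coding genes. Most points lie above 0 on Rif1_Myc (120 of 131) and Taz1_wt (128 of 131), and 51 of 131 do so on Taz1_L593F.

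The IP and WCE channels were also read apart. Ribosomal protein genes had a median WCE signal of −0.31, −0.28, −0.22 and −0.25 (log2, centred) on Rif1_Myc, Taz1_GFP, Taz1_L593F and Taz1_wt, against −0.13, −0.10, −0.12 and −0.09 for all genes. Their IP signal was −0.00, −0.17, −0.24 and 0.07 on the same arrays, against −0.14, −0.10, −0.09 and −0.08. On Rif1_Myc and Taz1_wt the IP signal was thus above that of all genes while the WCE signal was below it, and on Taz1_GFP and Taz1_L593F both signals were below. Mitochondrial ribosomal protein genes had WCE signals as low, at −0.34, −0.35, −0.29 and −0.30, with IP signals of −0.45, −0.36, −0.25 and −0.31. The part of the WCE signal in the ratio was not tested.

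The large subunit genes were lower than the small subunit genes on Rif1_Myc and Taz1_GFP by small amounts. The large subunit genes had a median of 0.27 on Rif1_Myc, against 0.33 for the small subunit, and 5 of the 11 genes at 1.5-fold were of the large subunit and 6 of the small. On Taz1_GFP the medians were 0.06 for the large and 0.14 for the small subunit, on Taz1_L593F −0.04 and −0.05, and on Taz1_wt 0.27 and 0.28. Large minus small, the gap kept its sign under all 15 alternatives on Rif1_Myc (−0.14 to −0.013) and Taz1_GFP (−0.12 to −0.039), and not on Taz1_L593F or Taz1_wt. Several of these alternatives could not change the sign. Using the deposited ratios, keeping outlier spots or leaving out multi-copy probes returned the same −0.060 on Rif1_Myc. Scaling the arrays only multiplies the gap. Single genes had an SD of 0.24 on Rif1_Myc, 0.17 on Taz1_GFP, 0.13 on Taz1_L593F and 0.13 on Taz1_wt, so the genes of both subunits overlapped widely.

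By chromosome, the Rif1_Myc median was 0.34 for the genes of chromosome I, 0.28 for chromosome II and 0.15 for chromosome III. On Taz1_wt the same medians were 0.27, 0.28 and 0.28, and on Taz1_GFP 0.05, 0.15 and 0.03. Medians of all genes by chromosome were not computed, so a difference of the members cannot be told apart from an offset of the whole chromosome. The 20 genes without a copy had medians of 0.36 on Rif1_Myc and 0.36 on Taz1_wt, against 0.28 and 0.27 for the 111 genes in families. Intron-containing genes (68) had medians of 0.28 on Rif1_Myc and 0.31 on Taz1_wt, against 0.33 and 0.26 for the 63 without an intron.

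The 5 highest values on Rif1_Myc each belonged to 1 copy of a duplicated gene, as do 111 of the 131 members. The gene rpl1802 (chromosome I, 1285616 to 1286338), for a large subunit protein, had 1.03 on Rif1_Myc, 0.09 on Taz1_GFP, −0.09 on Taz1_L593F and 0.31 on Taz1_wt, and on Rif1_Myc its 5 tiles had an SD of 0.14. The gene rps1102 (chromosome I, 4674588 to 4675181), for a small subunit protein, had 0.97, 0.22, −0.19 and 0.32 on the arrays in the same order. The gene rps901 (chromosome I, 475354 to 476122), whose protein lies at the messenger RNA entry of the small subunit, had 0.93, 0.25, −0.10 and 0.42. All of these were high on Rif1_Myc at every tile within 500 bp of the gene, of which the lowest of rpl1802 was 0.78, and none stood out in the same degree on Taz1_wt. Next came rpl3602 with 0.82, 0.27, 0.16 and 0.46, and rpl4302, for a zinc-binding large subunit protein, with 0.70, 0.41, −0.16 and 0.55.

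At the other end of Rif1_Myc, rps2501 (chromosome II, 1274250 to 1274719) had −0.38 on Rif1_Myc, −0.29 on Taz1_GFP, −0.34 on Taz1_L593F and −0.03 on Taz1_wt. It ranked among the 4 lowest members on each array, although its Taz1_wt value is close to the array median. The gene rpl1603 had −0.28, −0.10, 0.08 and 0.02, and rpl15 had −0.19, −0.04, −0.04 and 0.08. The genes rpl1603 and rpl15 were low on Rif1_Myc and near the array median elsewhere.

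On Taz1_wt the highest gene was rps29 (chromosome II, 516428 to 516879), for a zinc-binding protein of the head of the small subunit. It had 0.39 on Rif1_Myc, 0.43 on Taz1_GFP, 0.01 on Taz1_L593F and 0.72 on Taz1_wt, and its 5 tiles on Taz1_wt ran from 0.62 to 0.89. Its neighbour rps27 (517321 to 517984) had 0.60, 0.42, 0.05 and 0.49 in the same order, and the genes share 2 tiles, so their values are not independent. The next genes on Taz1_wt were rps102 with 0.40, 0.07, 0.09 and 0.58, rpl4302, rpl803 with 0.59, 0.11, 0.12 and 0.51, and rpl14 with 0.44, 0.03, −0.06 and 0.50. The lowest on Taz1_wt were rpl3702 (−0.07, −0.14, −0.13 and −0.03), rps2501 and rpl2402 (0.04, 0.06, −0.07 and −0.05), and these were the 3 members below the Taz1_wt median.

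Of their 10 highest genes, Rif1_Myc and Taz1_wt had 4 in common, Taz1_GFP and Taz1_wt 4, Rif1_Myc and Taz1_GFP 2, Taz1_L593F and Taz1_wt 2, Rif1_Myc and Taz1_L593F 1, and Taz1_GFP and Taz1_L593F 0. Sets of 10 are small, and these counts do not rank the arrays by likeness. Across all members Taz1_GFP had a Pearson correlation of 0.42 with Taz1_L593F and 0.41 with Taz1_wt. Over the 131 genes the Pearson correlation between Rif1_Myc and Taz1_wt was 0.45 (Spearman 0.38), and over all 5108 genes it was 0.40. These points share the tiles and their base composition, and genes are not replicates.

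**Figure D2:**
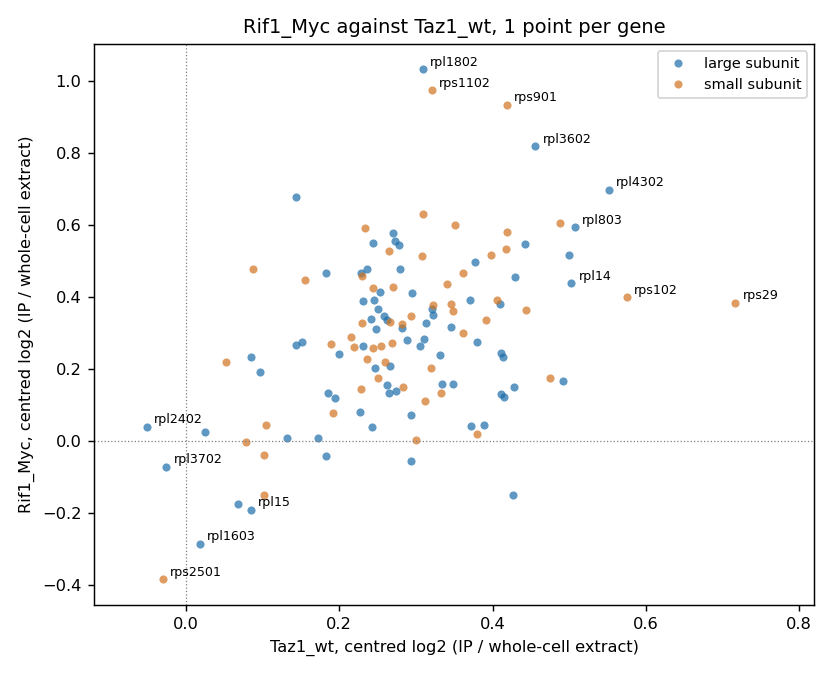
Rif1_Myc against Taz1_wt for the 131 ribosomal protein genes. Both axes are centred log2 ratios of IP to whole-cell extract, each point is 1 gene coloured by subunit, and the named genes are the 5 highest and 3 lowest of each array. The gene rpl1802 is highest on Rif1_Myc at 1.03 with 0.31 on Taz1_wt, and rps29 is highest on Taz1_wt at 0.72 with 0.39 on Rif1_Myc.

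On Taz1_GFP, rps1902, for a small subunit protein needed to mature the small subunit, had 0.36 on Rif1_Myc, 0.44 on Taz1_GFP, −0.07 on Taz1_L593F and 0.44 on Taz1_wt. It was followed on Taz1_GFP by rps29, rps27, rpl4302 and rps1701, the last with 0.38 on Taz1_GFP and 0.47 on Taz1_wt. Each of these 5 genes was also above the Taz1_wt member median. The lowest on Taz1_GFP were rps21 (−0.39), rpl35 (−0.33), for a protein at the mouth of the peptide exit tunnel, and rps2201 (−0.33).

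On Taz1_L593F the members ran from −0.45 to 0.27. The highest genes were rpl3802 (0.27), rpl2102 (0.22), rpl2801 (0.21), rps1502 (0.19) and rpl2301 (0.18), and the lowest rps1201 (−0.45), rpl1801 (−0.41) and rps2201 (−0.36). The gene rps2201 was also among the 3 lowest on Taz1_GFP.

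Within the loci, the signal on Rif1_Myc and Taz1_wt covered the transcribed unit. Tiles centred in the gene body had a member median of 0.43 on Rif1_Myc, 0.05 on Taz1_GFP, −0.07 on Taz1_L593F and 0.35 on Taz1_wt. The 500 bp upstream of the gene start had 0.27, 0.04, −0.03 and 0.20, and the 500 bp downstream of the gene end 0.18, 0.15, 0.01 and 0.29. For all protein-coding genes the body medians were 0.01, −0.01, −0.01 and −0.01, the upstream medians −0.12, 0.02, 0.03 and 0.00, and the downstream medians −0.06, 0.06, 0.04 and 0.04.

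The body exceeded the upstream side in 87 of 131 genes on Rif1_Myc (63.7% of all genes), 73 of 130 on Taz1_GFP (46.0%), 53 of 131 on Taz1_L593F (42.7%) and 96 of 131 on Taz1_wt (48.5%). The share on Rif1_Myc is near that of all genes, and that on Taz1_wt is not. The median difference, body minus upstream, was 0.16 on Rif1_Myc, 0.03 on Taz1_GFP, −0.06 on Taz1_L593F and 0.13 on Taz1_wt, against 0.12, −0.02, −0.04 and −0.01 for all genes. The Rif1_Myc difference became −0.04 once the trend with the GC content of the tiles was removed and −0.02 without the registration of probe positions, whereas the Taz1_wt difference was 0.20 and 0.02 under the same settings. On Rif1_Myc the tile ratio had a correlation of 0.28 with GC content over all chromosome tiles, and on Taz1_wt −0.13.

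Single loci varied widely around these medians. On Rif1_Myc, rpl4302 had 1.29 in the body against 0.16 upstream, rps1702 had 0.55 against −0.53, and rpl2101 had 0.49 against −0.44. The reverse held for rps1502, with −0.05 in the body against 0.61 upstream, for rpl1603 (−0.29 against 0.02) and for rps1501 (0.10 against 0.41). On Taz1_wt the largest excess of the body was at rps1901 (0.50 against −0.08), rpl3201 (0.41 against −0.15) and rps1701 (0.57 against 0.04), and the largest excess of the upstream side at rps2802 (0.09 against 0.59), rps27 (0.46 against 0.77) and rpl1001 (0.18 against 0.47). Several of these sides rest on a single tile, among them the rpl4302 body and the rps1702 upstream side. At rps2802 the body is a single tile, and the upstream tiles had −0.23 and 1.40 on Taz1_wt. The only upstream tile of rps27 is also a downstream tile of rps29. An upstream tile can belong to a neighbouring gene: 43 of the 131 members had no other gene apart from long non-coding RNAs in that window, and among them the median difference was 0.21 on Rif1_Myc and 0.09 on Taz1_wt.

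Around the gene start the member median on Rif1_Myc was 0.12 in the bin that starts 400 bp upstream and 0.48 in the one that starts 200 bp upstream, and it stayed at 0.48, 0.44, 0.39 and 0.38 in the next 4 bins of 200 bp before it declined to 0.20. On Taz1_wt the bins over the same stretch ran from 0.18 through 0.30, 0.32, 0.31 and 0.33 to 0.36, and the highest lay at 600 to 799 bp past the start. On Taz1_GFP no bin exceeded 0.17, found at 800 to 999 bp past the start, and on Taz1_L593F the lowest bins, at −0.11, were the first 400 bp of the gene. Aligned on the gene end, Taz1_GFP had its highest bin, 0.19, at 200 to 399 bp past the end, where all genes had 0.05. Taz1_wt had its highest bin of that alignment, 0.36, just past the end, where all genes had 0.08. The Taz1_wt bin before the end had 0.33, and the bin at 200 to 399 bp past it 0.29. The median length of the members was 686 bp, so the high Taz1_wt values ran across the gene end. The nearest non-ribosomal neighbours of the members, 240 genes, had gene medians of 0.07 on Rif1_Myc, 0.02 on Taz1_GFP, −0.01 on Taz1_L593F and 0.08 on Taz1_wt, and their bodies 0.06, −0.01, −0.01 and 0.04.

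**Figure D3:**
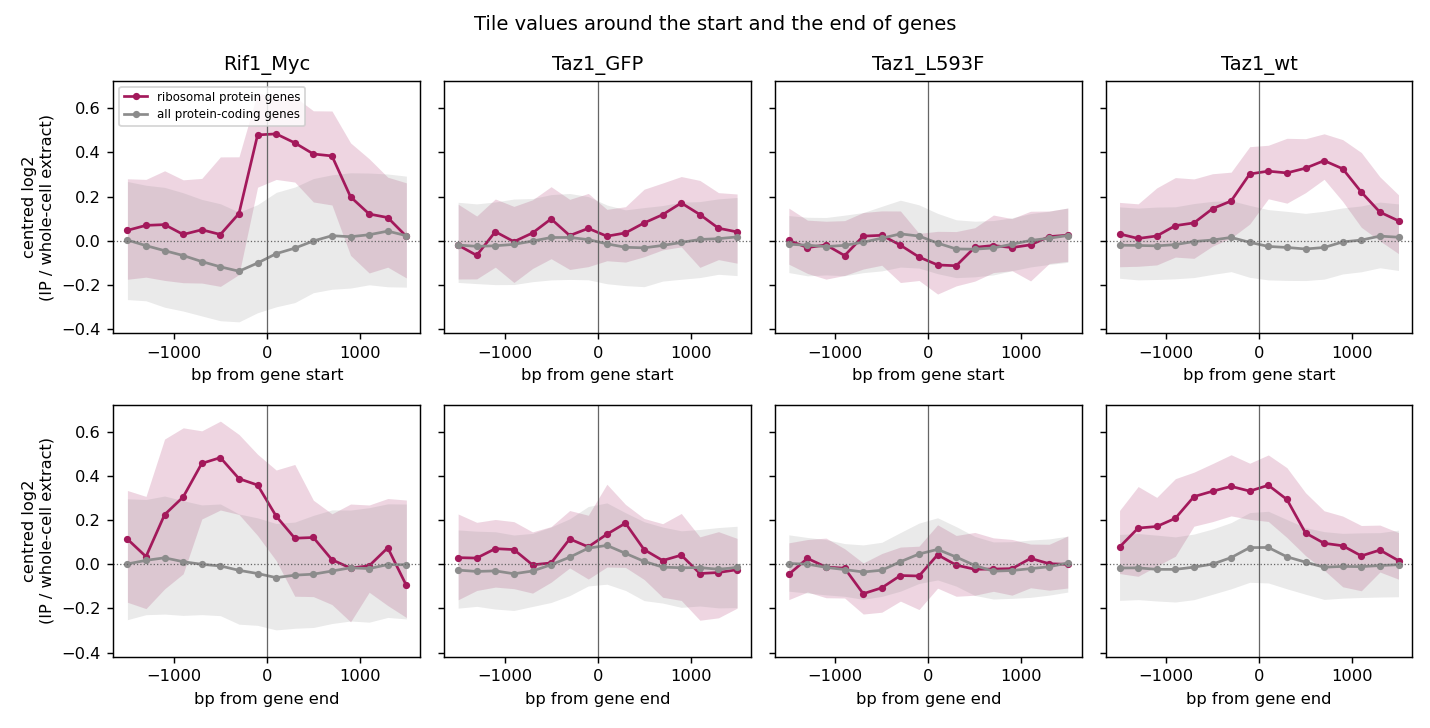
Median tile value around the start (upper row) and the end (lower row) of ribosomal protein genes and of all protein-coding genes. The horizontal axis is the distance in bp in bins of 200 bp, the vertical axis the centred log2 ratio of IP to whole-cell extract, and shading the quartile range over tiles. On Rif1_Myc the ribosomal protein median reaches 0.48 at the gene start. On Taz1_wt it reaches 0.36 in the bin that starts 600 bp past the gene start. Aligned on the gene end, the Taz1_wt median reaches 0.36 in the bin that starts at the end.

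Copies of the same ribosomal protein differed about as much as genes of different proteins. The 131 members held 54 paralogue families, 51 of 2 copies and 3 of 3. The median absolute difference between 2 copies, over 60 pairs, was 0.19 on Rif1_Myc, 0.14 on Taz1_GFP, 0.09 on Taz1_L593F and 0.10 on Taz1_wt. Over the 8455 pairs of members that do not share a family, including pairs with the 20 genes without a copy, it was 0.21, 0.17, 0.12 and 0.12. The coding sequences of the copies had a median identity of 87.6%, with a range of 66.1% to 99.6%. Probe sequences were not used here, so cross-hybridisation between copies was not tested. Over the 54 families the correlation of the spread with the identity was −0.25 on Rif1_Myc and −0.11 on Taz1_wt.

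The widest family on both Rif1_Myc and Taz1_wt was rps25, for a protein of the head of the small subunit. Its copy rps2502 had 0.47 on Rif1_Myc, 0.02 on Taz1_GFP, −0.10 on Taz1_L593F and 0.36 on Taz1_wt, while rps2501 was below 0 on each array, so the copies lay 0.85 apart on Rif1_Myc and 0.39 apart on Taz1_wt. The rpl30 copies moved in opposite ways on the same arrays. On Rif1_Myc rpl3001 had 0.58 and rpl3002 −0.15, and on Taz1_wt rpl3001 had 0.27 and rpl3002 0.43. The copies of rpl15 had −0.19 (rpl15) and 0.50 (rpl1502) on Rif1_Myc.

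Other families were closely matched. On Rif1_Myc the copies of rpl17, for a protein of the peptide exit tunnel, differed by 0.0090, those of rps10 by 0.018 and those of rps23, for a protein of the decoding centre, by 0.020. On Taz1_wt the copies of rpl23 differed by 0.00080, those of rps0 by 0.0015 and those of rpl5 by 0.014. The triplet rpl801, rpl802 and rpl803, for the protein next to the peptidyl transferase centre, was high on Rif1_Myc at 0.54, 0.68 and 0.59, and was spread over 0.36 on Taz1_wt at 0.28, 0.14 and 0.51. The rpl34 family was spread over 0.36 on Taz1_wt as well, with 0.43 at rpl3401 and 0.07 at rpl3402.

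**Figure D4:**
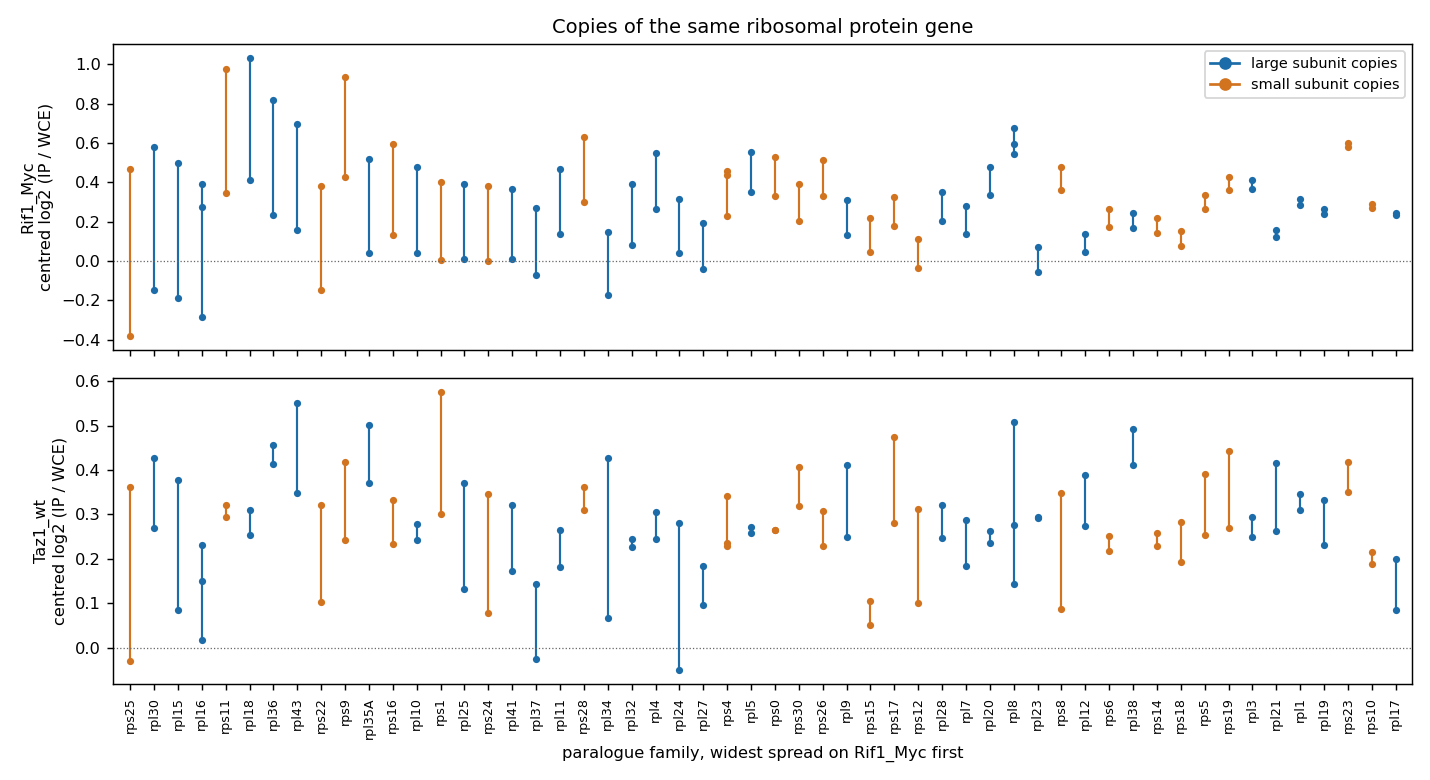
Copies of each of the 54 duplicated ribosomal protein genes on Rif1_Myc (upper panel) and Taz1_wt (lower panel). The vertical axis is the centred log2 ratio of IP to whole-cell extract, each point is 1 gene, each line joins the copies of a family, and families are ordered by their spread on Rif1_Myc. The rps25 family is widest on both, with 0.85 on Rif1_Myc and 0.39 on Taz1_wt.

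Between arrays of the same antibody, ribosomal protein genes were lower in the taz1l593F cells than in wild-type cells. The difference Taz1_L593F minus Taz1_wt had a member median of −0.33 (quartiles −0.42 and −0.22), against −0.00 for all genes, and was below 0 in 128 of 131 members (51.0% of all genes). It reached a 1.5-fold lower ratio in 5 members (0.881%), and its median was −0.15 without the registration of probe positions. The difference Taz1_GFP minus Taz1_wt had a member median of −0.20 (−0.31 and −0.10), against −0.00, was below 0 in 117 members (50.4%) and reached 1.5-fold in 4 (0.196%). Both differences use the same Taz1_wt array, so they are not independent of each other, and array and genotype or antibody cannot be told apart.

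The largest differences between Taz1_L593F and Taz1_wt were at rps29 (0.01 on Taz1_L593F, 0.72 on Taz1_wt), rpl4302 (−0.16 and 0.55) and rpl1801 (−0.41 and 0.25). The 3 members that were not lower were rps1502 (0.19 on Taz1_L593F, 0.05 on Taz1_wt), rpl1603 (0.08 and 0.02) and rpl3402 (0.10 and 0.07). The large subunit had a median difference of −0.32 and the small subunit −0.35. Mitochondrial ribosomal protein genes had −0.04, translation factor genes −0.35 and glycolytic genes −0.24.

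Members were also set apart by the motifs of their promoters. Members with an exact HomolD had medians of 0.29 on Rif1_Myc, 0.06 on Taz1_GFP, −0.04 on Taz1_L593F and 0.29 on Taz1_wt, against 0.30, 0.11, −0.04 and 0.25 for those without. With the HomolE core they were 0.34, 0.07, −0.05 and 0.28, against 0.27, 0.08, −0.04 and 0.28. Since 128 of 131 promoters held HomolD with at most 1 mismatch, most members without an exact HomolD had a near match, and the set holds almost no group without the element. The 5 genes with a telomere repeat core had 0.23 on Rif1_Myc and 0.27 on Taz1_wt, against 0.29 and 0.28. Over the upstream 500 bp alone they had 0.15 on Rif1_Myc and 0.07 on Taz1_wt, against 0.27 and 0.21. The 34 genes with a TATA box had 0.26, 0.08, −0.02 and 0.25, against 0.31, 0.07, −0.04 and 0.28, and upstream alone 0.18, 0.12, 0.04 and 0.28, against 0.29, 0.03, −0.05 and 0.19. None of these gaps was tested.

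Other gene lists give the scale of these values. The 15 measured genes of translation factors, which load and move transfer RNA and messenger RNA on the ribosome, had medians of 0.42 on Rif1_Myc, −0.00 on Taz1_GFP, −0.03 on Taz1_L593F and 0.34 on Taz1_wt, with all 15 above the array median on Rif1_Myc and on Taz1_wt. Among them eft202, for the factor that moves the ribosome along, had 0.77, −0.00, −0.07 and 0.53, and tef103, for the factor that delivers transfer RNA, 0.70, 0.09, −0.03 and 0.40. The 12 glycolytic genes had medians of 0.36, −0.02, −0.19 and −0.04, with 12 above the median on Rif1_Myc and 5 on Taz1_wt. Of these lists, ribosomal protein, translation factor and glycolytic genes were thus high on Rif1_Myc, and ribosomal protein and translation factor genes on Taz1_wt. Ribosome biogenesis and rpp genes, given next, also had medians above those of all genes on both arrays.

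The 14 ribosome biogenesis genes had medians of 0.17 on Rif1_Myc, 0.07 on Taz1_GFP, −0.02 on Taz1_L593F and 0.13 on Taz1_wt. Among them utp4 had 1.56 on Rif1_Myc and 0.05 on Taz1_wt. The 10 rpp genes, which are 7 ribosomal stalk genes and the RNase P genes rpp1, rpp21 and rpp40, had 0.24, 0.15, 0.02 and 0.18. These medians mix the 2 kinds. On Rif1_Myc the stalk genes had 0.14 (rpp0), 0.57 (rpp101), 0.79 (rpp102), −0.28 (rpp103), 0.49 (rpp201), 0.36 (rpp202) and 0.33 (rpp203). The RNase P genes had −0.28 (rpp1), −0.00 (rpp21) and −0.11 (rpp40). On Taz1_wt the stalk genes ran from 0.02 to 0.30, and the RNase P genes had −0.09, 0.01 and 0.18. The 39 mitochondrial ribosomal protein genes, whose products work in another compartment, had −0.10, 0.02, 0.00 and 0.03, close to all genes. Median GC content over the tiles was 36.7% for ribosomal protein genes, 39.3% for translation factors, 44.2% for glycolytic genes and 35.5% for all genes. With the GC trend removed, the member median minus that of all genes was 0.29 on Rif1_Myc, 0.09 on Taz1_GFP, −0.04 on Taz1_L593F and 0.30 on Taz1_wt.

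**Figure D5:**
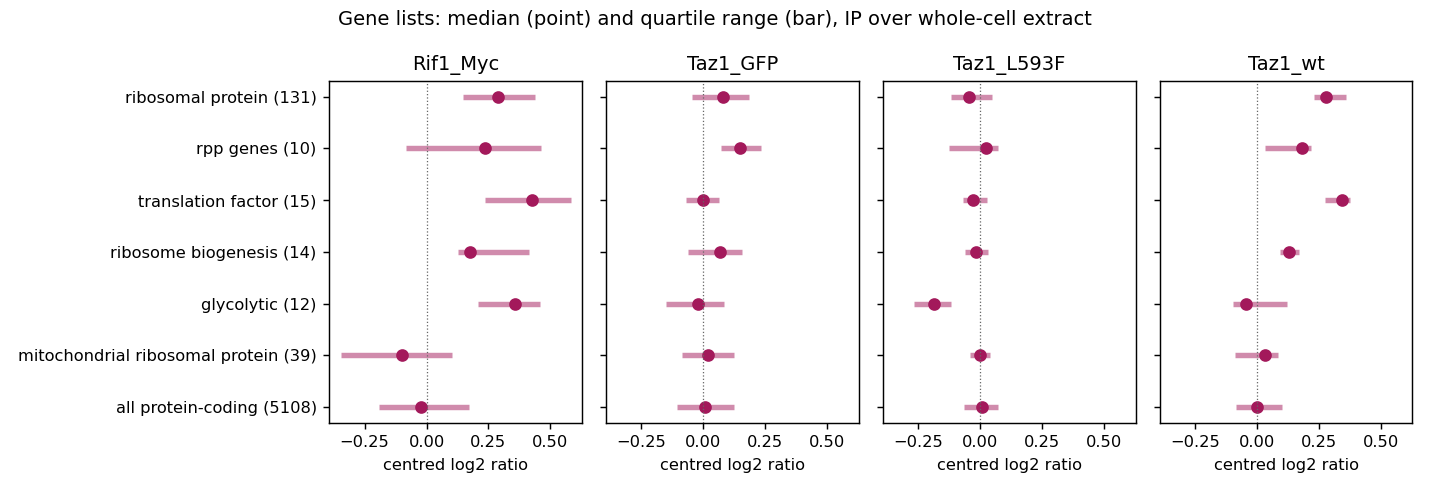
Gene lists on the 4 arrays. The horizontal axis is the centred log2 ratio of IP to whole-cell extract, points are medians over the genes of a list, bars are quartile ranges, and the number of measured genes stands in brackets. Ribosomal protein and translation factor genes are high on Rif1_Myc (0.29 and 0.42) and Taz1_wt (0.28 and 0.34), and mitochondrial ribosomal protein genes are near 0 on Taz1_wt (0.03).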

How the data were processed

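The 4 arrays are Agilent 2-colour tiling arrays, with IP DNA in Cy5 and WCE DNA in Cy3 after random-primed PCR and no dye swap. The authors scanned them with Agilent Feature Extraction 11.5.1.1, per the file headers, and deposited background-subtracted, dye-normalized intensity for each channel, together with a log10 ratio of Cy5 over Cy3. The deposited value table holds the log2 ratio of the same intensities, to within 5e-10. Median processed intensities were 1040 to 1142 in Cy5 and 1074 to 1174 in Cy3. The number of arrays limits the precision.

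Control and outlier spots were left out, and the log2 ratios were centred on the median of each array, with no loess or quantile step. Which genome build the probe coordinates follow was not given in the sources used. They were therefore registered on RefSeq ASM294v3 by shifting 7 chromosome segments to where WCE signal and GC content correlated best. At the applied shifts the correlation was 0.46 to 0.52 by segment. Over 136 windows of 300 probes, the mean correlation was 0.48 at the best shift of each window and 0.09 without a shift. The best shift of 134 windows fell within 300 bp of the shift of their segment. Gene coordinates are those of ASM294v3.

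Paralogue families join symbols that differ only in the copy number at their end, and a symbol without a copy number joined at a coding identity of at least 70%. Body tiles have their centre inside the gene. The analysis used Python 3.11.15, pandas 2.3.3, Biopython 1.88, and R 4.3.3 with limma 3.58.1 for the normexp and loess alternatives. It was tested on simulated data, made by adding known shifts to shuffled tile values. The tolerance of that test was wider than the gaps between subunits, so it does not show that gaps of that size are recovered. The named genes are, on each array, the 5 highest and 3 lowest members, and on Rif1_Myc and Taz1_wt the 3 widest and 3 narrowest families and the 3 extremes of body minus upstream, with the 3 extremes of Taz1_L593F minus Taz1_wt. The lists were mitochondrial ribosomal proteins, rpp genes, 16 translation factors, of which tif35 had no match in the annotation, 14 ribosome biogenesis genes and 12 glycolytic genes. The members, lists, motifs and rules were chosen with earlier results of these data known.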

Additional observations from a re-analysis of the deposited data

How the results depend on the processing

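Recomputed under 18 alternatives, 22 results gave 342 values. Using the deposited ratios or leaving out multi-copy probes changed none of the values. Scaling the arrays cannot change the sign of a median on a single array. With 1 array per group no replicate spread exists to measure a shift of a median against, so ranges are given. The count of members at 1.5-fold moved by over 1.5 times in 18 cases. On Rif1_Myc (11) it was 21 with normexp, 3 with arrays scaled to a common spread, 34 with tiles overlapping the gene alone, 6 with 1000 bp on both sides, 1 at 2-fold and 61 at a looser threshold. On Taz1_GFP (0) it was 1 with normexp and 11 at the looser threshold. On Taz1_wt (1) it was 20 with normexp, 2 with loess, 6 with a common spread, 6 with overlapping tiles, 0 with 1000 bp, 2 without the registration shift, 2 with tiles moved 300 bp up, 2 with the GC trend removed, 0 at 2-fold and 45 at the looser threshold. Without the registration shift the member median on Taz1_wt was 0.14 and that of Taz1_L593F minus Taz1_wt −0.15. Body minus upstream on Rif1_Myc was −0.016 without the shift and −0.040 with the GC trend removed, against 0.16, and the cause was not tested. Member medians kept their sign under the alternatives run, at 0.13 to 0.43 on Rif1_Myc, 0.0094 to 0.11 on Taz1_GFP, −0.071 to −0.022 on Taz1_L593F and 0.14 to 0.40 on Taz1_wt. Body minus upstream ran from −0.040 to 0.22 on Rif1_Myc, 0.021 to 0.12 on Taz1_GFP, −0.080 to 0.038 on Taz1_L593F and 0.018 to 0.23 on Taz1_wt. Large minus small changed sign under 2 alternatives on Taz1_L593F and 2 on Taz1_wt. Taz1_L593F minus Taz1_wt ran from −0.42 to −0.15 and Taz1_GFP minus Taz1_wt from −0.27 to −0.11. No paired analysis was possible because each group has 1 array, and for the same reason no replicate could be left out. Fragments of 500 to 1000 bp and tiles 300 bp apart limit how finely body and upstream signal can be separated.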

Other observations

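The gene rpl1901 (chromosome II, 4123056 to 4123747), singled out after its values were seen, had the widest contrast between body and upstream side among members on Taz1_GFP. On Taz1_GFP its body was at −0.23, its upstream side at 1.255 and its downstream side at 0.84. The gene has 6 tiles, and its upstream and downstream sides each rest on a single tile. The same parts were at 0.34, 0.46 and 0.33 on Rif1_Myc, at 0.03, −0.42 and 0.52 on Taz1_L593F, and at 0.35, 0.53 and 0.36 on Taz1_wt. Its WCE signal on Taz1_GFP was dim, at −1.23 (log2, centred), against a member median of −0.28. It was dim on the other arrays too, at −1.36 on Rif1_Myc, −1.05 on Taz1_L593F and −0.95 on Taz1_wt. The part of this signal in the ratio was not tested. Body minus upstream on Taz1_GFP was −1.49 at rpl1901, and the next largest in size was 0.61 at rps1602.

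Over the 131 members, the Pearson correlation was 0.42 between Taz1_GFP and Taz1_L593F, 0.41 between Taz1_GFP and Taz1_wt, 0.22 between Taz1_L593F and Taz1_wt, 0.28 between Rif1_Myc and Taz1_GFP and 0.03 between Rif1_Myc and Taz1_L593F. Over all 5108 genes the same correlations were 0.32, 0.63, 0.33, 0.37 and 0.10, in that order. Within the set, the Rif1_Myc value had a correlation of 0.46 with the WCE signal of its own array, and the Taz1_wt value one of 0.02. Over all genes these were 0.39 and 0.14. These are descriptions across genes that share probes and base composition, and genes are not replicates.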
